A study of Mus musculus with 24 samples.

Results

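Genes that carry the circadian clock's signal to the rest of the cell were followed in mouse hearts after doxorubicin, an anthracycline chemotherapy drug that can injure the heart, with or without hesperitin, the labels' spelling of a citrus flavonoid. They are the 8 genes Dbp, Tef, Hlf, Nfil3, Ciart, Bhlhe40 and Bhlhe41, and Noct, chosen by name and matched by symbol. All 8 were among the 10393 genes of the table for 16 h, and 6 were among the 7723 genes of the table for 72 h, which does not list Nfil3 or Ciart. All mice were wild type. At 16 h there were 4 groups of 3 libraries: hearts given vehicle (V), hearts given doxorubicin alone at 25 mg/kg (DOX), hearts given hesperitin alone, 10 mg/kg each day (H), and hearts given the 2 compounds at those doses (DOXH). At 72 h the groups used here were V and DOX, with 3 libraries each and the same dose of doxorubicin. The labels give no strain, sex or age, no number of animals behind a sample and no clock time at which hearts were taken.

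The clock of a mammalian cell is a loop in which CLOCK and BMAL1 (gene Arntl) switch on their own repressors, the PER, CRY and REV-ERB proteins, through E-boxes in DNA. The same E-boxes drive output genes. DBP, TEF and HLF are activators of the PAR bZIP family that bind D-boxes, NFIL3 (E4BP4) is a bZIP repressor that competes for those sites, and CIART (CHRONO) and the bHLH proteins BHLHE40 (DEC1) and BHLHE41 (DEC2) repress transcription by CLOCK and BMAL1. NOCT (nocturnin) is a rhythmic phosphatase of NADPH related to mRNA deadenylases. In the heart this output reaches genes of metabolism and of ion channels.

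The start sites of these genes differ in their E-boxes, and the stretches that hold a motif are shown so that the values can be read beside them. RefSeq windows (GRCm38.p6) of 250 bases upstream of a start site were matched for 7 of the 8 genes, with 8 windows in all because Tef has 2 starts. They were searched on both strands for the E-box CACGTG, for the D-box as TTATGTAA, TTACATAA, TTACGTAA or TTATATAA, and for the core of the element read by REV-ERB proteins, TAGGTCA or its reverse TGACCTA. An E-box was found for Ciart, Bhlhe41 and both starts of Tef, and the REV-ERB core for Nfil3. Upstream here refers to the RefSeq start. By the GENCODE spans given below, the Nfil3 stretch and both Tef stretches lie inside the annotated gene. No D-box was found in these windows, and Dbp, Hlf and Noct held none of these letters there. Of all 32851 RefSeq windows of this length, 6.02% hold the E-box, 1.43% the D-box and 2.23% the REV-ERB core. A match describes letters and does not show that a protein binds there. Capitals mark the motif, and each run reads 5′ to 3′ in the direction of the gene.
Ciart, chr3:95882252-95882478, minus strand, 3 E-boxes: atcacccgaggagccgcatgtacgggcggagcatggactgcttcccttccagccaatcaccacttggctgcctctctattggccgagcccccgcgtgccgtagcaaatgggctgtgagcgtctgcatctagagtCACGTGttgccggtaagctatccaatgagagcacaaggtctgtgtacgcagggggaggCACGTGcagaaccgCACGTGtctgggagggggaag
Tef, upstream start, chr15:81802534-81802563, plus strand, E-box: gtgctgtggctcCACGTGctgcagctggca
Tef, downstream start, chr15:81811264-81811293, plus strand, E-box: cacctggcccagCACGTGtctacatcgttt
Bhlhe41, chr6:145865556-145865585, minus strand, E-box: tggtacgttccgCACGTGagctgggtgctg
Nfil3, chr13:52981040-52981069, minus strand, REV-ERB core on the reverse strand: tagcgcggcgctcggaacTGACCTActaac

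In the GENCODE annotation of GRCm38 all 8 are protein-coding genes. Dbp (ENSMUSG00000059824) lies on chromosome 7 from 45705088 to 45710203, Tef (ENSMUSG00000022389) on chromosome 15 from 81802421 to 81826863, and Hlf (ENSMUSG00000003949) on chromosome 11 from 90336536 to 90390895. Nfil3 (ENSMUSG00000056749) lies on chromosome 13 from 52967209 to 52981073, and Ciart (ENSMUSG00000038550) on chromosome 3 from 95878503 to 95882251. Bhlhe40 (ENSMUSG00000030103) and Bhlhe41 (ENSMUSG00000030256) are on chromosome 6, from 108660629 to 108666925 and from 145858243 to 145865558, and Noct (ENSMUSG00000023087) is on chromosome 3 from 51224447 to 51251644. Exons of 4 of them overlap a gene on the opposite strand, and the strand setting of the counting is not given in the sources used here, so reads of such partners cannot be told apart. Only the partner of Dbp is in the tables: Sphk2, a sphingosine kinase gene, shares 539 exonic bases with Dbp. Sphk2 differed by 0.19 between DOX and V at 16 h (log2, adjusted p = 0.343) and by 0.35 at 72 h (adjusted p = 0.0383), both opposite in sign to Dbp.

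Libraries held 9255651 to 11074450 counts in V, DOX and DOXH at 16 h, 17664060 to 19869050 in H, and 16607805 to 20587578 at 72 h. The 6 cardiomyocyte markers looked at (Myh6, Tnnt2, Tnni3, Actc1, Ryr2, Myl2) were all present, with summed levels of 39016 to 45332 CPM in V at 16 h. CPM are counts scaled to library size with TMM factors, within each table, so levels are not compared between the tables. All 4 lymphocyte markers looked at were missing from both tables. The DOXH libraries lay far apart. The first principal component at 16 h carried 60.8% of the variance and placed DOXH replicates 1 to 3 at 8.28, 35.1 and -17.7. The DOX libraries were between 29.4 and 42.2 and the V libraries between -20.8 and -18.0, so results with DOXH are given with and without single libraries. One of the 3 DOX libraries at 72 h has a number that no label uses and is called the unnumbered library.

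Per length of the longest annotated transcript, Dbp and Tef were the most abundant of the 8 in V hearts at 16 h. Dbp read 43.1 ± 2.93 and Tef 38.8 ± 0.918 CPM per kilobase (mean ± SD, n = 3), and their ranges, 40.8 to 46.4 and 37.9 to 39.7, did not overlap. Bhlhe40 followed at 16.1 ± 1.71. Noct (7.25 ± 1.56), Ciart (6.77 ± 0.0596) and Hlf (6.52 ± 0.304) lay within each other's spread, as did Bhlhe41 (3.86 ± 0.355) and Nfil3 (3.44 ± 1.36) at the low end. At 72 h the order in V was Tef (45.6 ± 0.918), Dbp (40.8 ± 9.01), Bhlhe40 (9.18 ± 0.626), Hlf (6.92 ± 0.427), Bhlhe41 (3.59 ± 0.819) and Noct (3.20 ± 0.245), where Tef and Dbp lay within each other's spread, as did Bhlhe41 and Noct.

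Doxorubicin against vehicle at 16 h asks how the drug changes the heart within a day. Of the 8 genes, 6 fell (Dbp, Ciart, Hlf, Bhlhe41, Noct and Bhlhe40) and none rose, where 16.6% of all 10393 genes tested fell and 15.6% rose (edgeR's quasi-likelihood test, Benjamini-Hochberg adjusted p under 0.05). The median log2 fold change of the 8 was -0.72, beside 0.02 over all genes. In 7 of them every DOX library lay below every V library, as in 28.0% of all genes. Nfil3 was the exception: its DOX libraries lay above V, as in 28.4% of all genes.

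**Figure D1:**
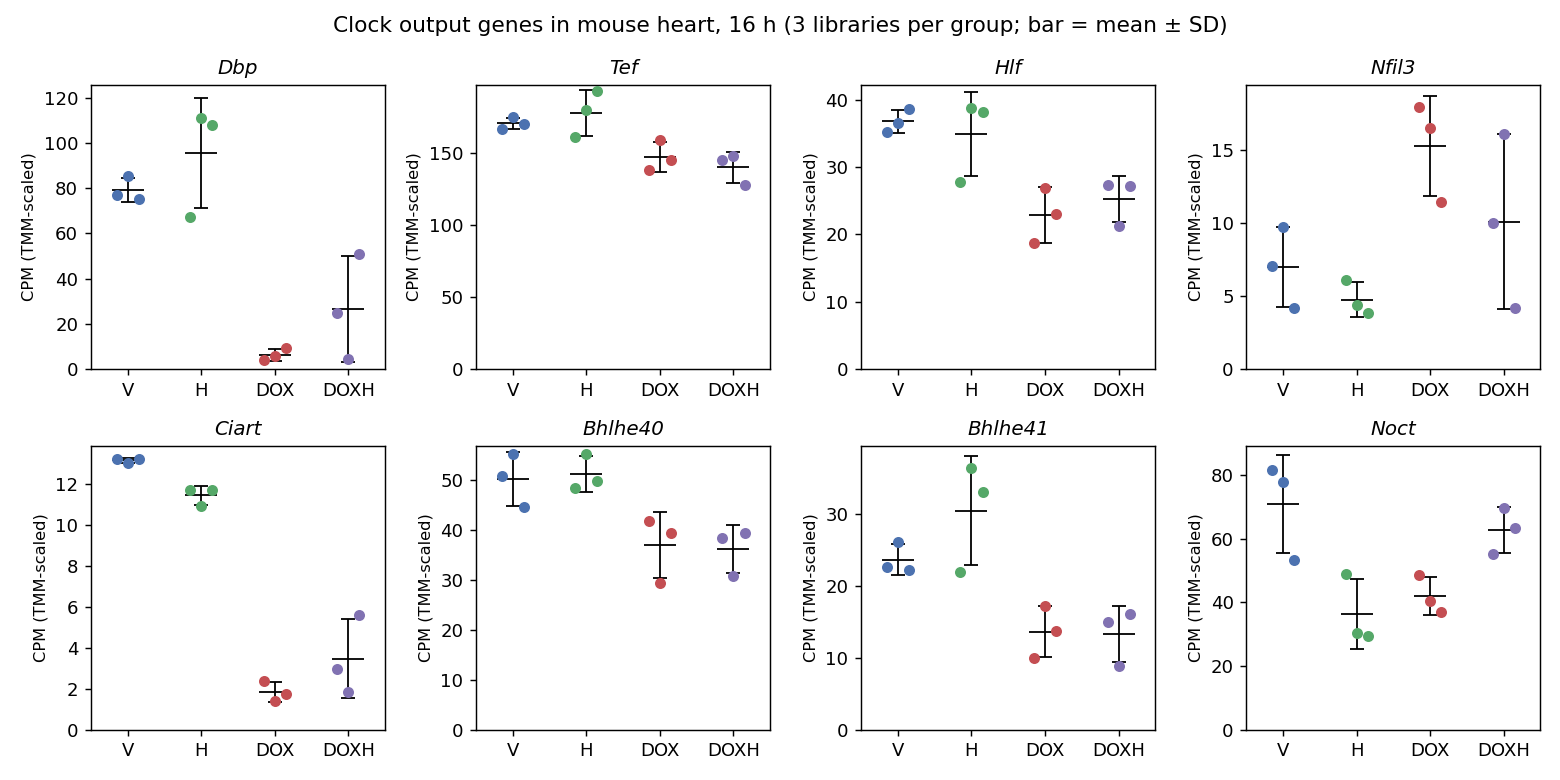
TMM-scaled CPM (vertical axis, from 0) of the 8 genes in each library at 16 h, by group (V, H, DOX, DOXH; 3 libraries each), with the mean and SD as bars. Dbp and Ciart are near the floor of their panels in DOX, and the DOXH libraries of Dbp spread from 4.18 to 50.7 CPM.

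Among the activators, Dbp moved most. It read 77.1, 85.2 and 75.0 CPM in V replicates 1 to 3 and 3.92, 5.78 and 9.12 CPM in DOX. The groups lay far apart, at means of 79.1 ± 5.41 and 6.27 ± 2.63 CPM (SD, n = 3), and the log2 fold change was -3.65 ± 0.65 (SE; adjusted p = 0.00418). Only 2 of the 10393 genes had a lower log2 fold change. Hlf read 35.2, 36.5 and 38.6 CPM in V and 18.7, 26.9 and 23.0 CPM in DOX, without overlap, and fell by 0.68 on the log2 scale (SE 0.16, adjusted p = 0.00925). Tef read 167, 175 and 170 CPM in V and 138, 159 and 145 CPM in DOX. Its groups did not overlap, but the difference of -0.21 ± 0.088 was not past the threshold (adjusted p = 0.0868). It was past it when only V and DOX were fitted (adjusted p = 0.0354). It was not in any of the 6 edgeR fits that left out a V or DOX library (adjusted p of 0.0751 to 0.248).

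Nfil3, the repressor at the same D-boxes, lay in the other direction. It read 7.04, 9.70 and 4.19 CPM in V and 17.9, 16.5 and 11.4 CPM in DOX. Every DOX library was above every V library, yet the log2 difference of 1.12 ± 0.41 missed the threshold (adjusted p = 0.0586). It passed in DESeq2 (adjusted p = 0.0252) and when only V and DOX were fitted (adjusted p = 0.0220). It passed in none of the 6 edgeR fits that left out a V or DOX library (adjusted p of 0.0527 to 0.173). Within a library, the log2 ratio of Dbp to Nfil3 counts needs no scaling between libraries. That ratio was 3.45, 3.14 and 4.16 in V and -2.19, -1.51 and -0.33 in DOX, a difference between means of -4.92. An exact two-sided permutation test gave p = 0.1 for it, the smallest value that 3 against 3 libraries allow. Each gene already separated DOX from V, in opposite directions, so this value was fixed beforehand and adds no evidence.

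All 3 repressors of CLOCK and BMAL1 fell. Ciart read 13.2, 13.0 and 13.2 CPM in V (126 to 143 counts) and 2.37, 1.40 and 1.73 CPM in DOX (16 to 26 counts), a log2 fold change of -2.84 ± 0.30 (adjusted p = 0.00211), and 8 of all genes tested had a lower one. Its V libraries were almost equal, and the DOX libraries were clear of them. Bhlhe41 read 22.7, 26.2 and 22.2 CPM in V and 10.0, 17.2 and 13.8 CPM in DOX, and fell by 0.79 (SE 0.25, adjusted p = 0.0345). Bhlhe40 read 50.8, 55.1 and 44.5 CPM in V and 41.8, 29.4 and 39.4 CPM in DOX, and fell by 0.45 (SE 0.14, adjusted p = 0.0311). Its highest DOX library came close to its lowest V library.

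Noct read 81.7, 77.8 and 53.5 CPM in V and 48.5, 40.4 and 36.9 CPM in DOX, with V replicate 3 nearest to DOX. It fell by 0.76 on the log2 scale (SE 0.21, adjusted p = 0.0207). The calls of Bhlhe40, Bhlhe41 and Noct lay close to the threshold. With 1 library left out, 3 to 5 of the 8 genes were called, and 3 without V replicate 1 and without V replicate 2. Over all genes, 1928 to 2409 were called in these fits, against 3352 with all libraries. Bhlhe41 lost its call without any of the V libraries or DOX replicate 1 or 3, Bhlhe40 without V replicate 1 or 2 or DOX replicate 2, and Noct without V replicate 1 or 2 or DOX replicate 2 or 3. Dbp, Ciart and Hlf were called in each of the 6 fits that left out a V or DOX library, at adjusted p of up to 0.0197, 0.0138 and 0.0350.

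The core loop moved beside its outputs. Of 12 core genes tested at 16 h, 4 fell and 2 rose, with a median log2 fold change of -0.20. Over all genes, 16.6% fell and 15.6% rose. The repressor genes Per3 (-1.93 ± 0.37), Nr1d1 (-1.60 ± 0.35), Per2 (-1.23 ± 0.15) and Nr1d2 (-0.88 ± 0.17) fell, and Clock (0.71 ± 0.11) and Arntl (2.05 ± 0.28) rose. Arntl, which does not appear in the table of 72 h, read 2.27 to 4.34 CPM in V and 11.9 to 16.0 CPM in DOX. Per1, with a difference of 0.38 ± 0.20 (adjusted p = 0.164), and Cry1, with 0.29 ± 0.26, did not pass. Of 14 other clock-controlled genes tested, 4 fell and 2 rose, to be read beside the same shares over all genes. Among those called were Dgat2, a triglyceride synthesis enzyme (-0.83 ± 0.11), and the coenzyme Q binding protein gene Coq10b (-1.08 ± 0.16). Kcnip2, a potassium channel subunit with a daily rhythm in the heart (-1.08 ± 0.21), and Nampt, an enzyme of NAD synthesis (0.52 ± 0.13), were called too.

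**Figure D2:**
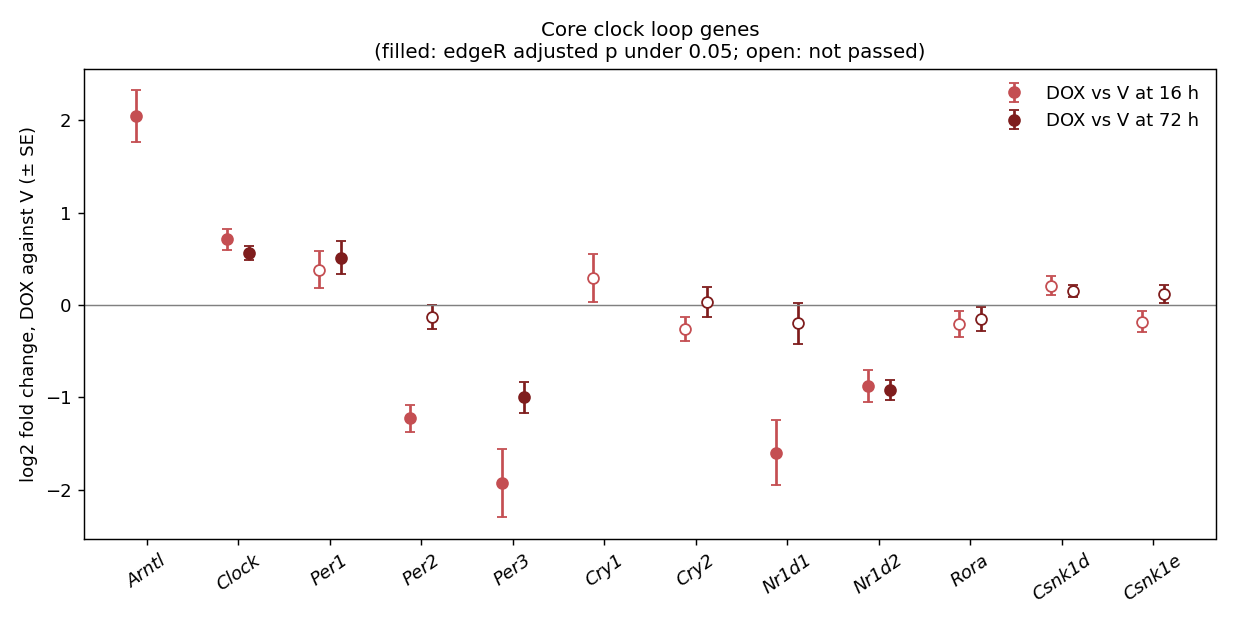
Log2 fold change of DOX against V (vertical axis, ± SE) of core clock loop genes at 16 h and 72 h, filled where edgeR's adjusted p was under 0.05. At 16 h Arntl stands at 2.05 and Per3 at -1.93, and at 72 h Per2 and Nr1d1 lie close to 0.

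Some of the genes here also respond to glucocorticoids or to low oxygen, so lists of both were read alongside. Over all genes at 16 h, 16.6% fell and 15.6% rose. Of 9 glucocorticoid response genes tested at 16 h none rose and 1 fell, the transcription factor gene Klf9 (-0.61 ± 0.15), with a list median of 0.47. Of 9 hypoxia response genes 5 fell and none rose, with a median of -0.32, among them Egln3, an oxygen-sensing hydroxylase (-1.0 ± 0.13), and the angiogenic factor gene Vegfa (-1.39 ± 0.32). Among cell type markers at 16 h, none of 5 fibroblast or 4 mural markers passed. Of 5 endothelial markers 2 fell, of 5 macrophage markers 1 rose and 1 fell, and of 3 red cell markers 1 fell. All 6 cardiomyocyte markers fell, from summed levels of 39016 to 45332 CPM in V to 20966 to 22674 CPM in DOX. Summed neutrophil markers, all 4 in the table, read 20.2 to 63.9 CPM in V and 125 to 229 CPM in DOX, though none of the 4 passed the test. Their part in the changes of the clock outputs was not tested, and in whole heart fewer cells of a type and less RNA per cell cannot be told apart.

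At 72 h after the drug, 5 of the 6 genes in the table of 72 h fell (Dbp, Hlf, Bhlhe41, Tef and Noct) and none rose, where 27.2% of all 7703 genes tested fell and 26.5% rose. Their median log2 fold change was -1.14, beside 0.01 over all genes. In those 5 every DOX library lay below every V library, as in 32.2% of all genes. The count stayed at 5 with any 1 library left out. Over all genes, 3397 to 4022 were called in those fits, against 4133 with all libraries.

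**Figure D3:**
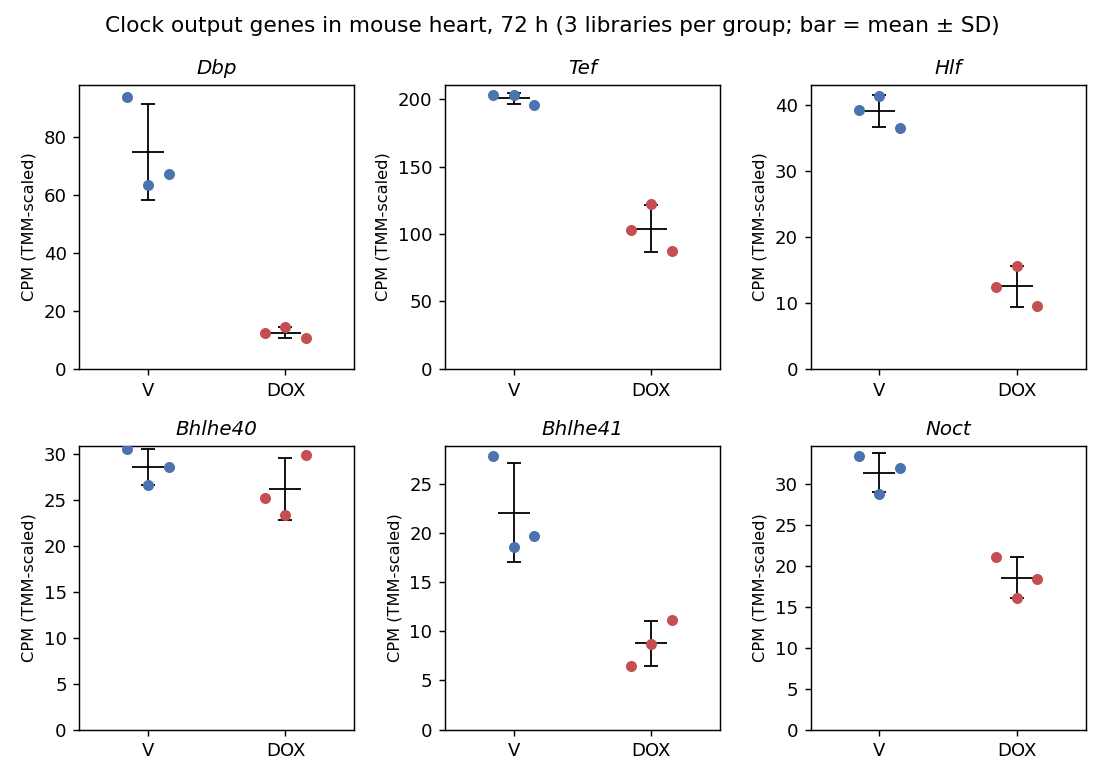
TMM-scaled CPM (vertical axis, from 0) of the 6 genes in the table of 72 h, by library in V and DOX (3 libraries each), with the mean and SD as bars. The groups are apart for all but Bhlhe40, and the DOX libraries of Dbp lie between 10.6 and 14.4 CPM.

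All 3 activators fell at 72 h. Dbp read 93.9, 63.6 and 67.2 CPM in V and 12.5, 14.4 and 10.6 CPM in DOX, the last in the unnumbered library. The log2 fold change was -2.58 ± 0.18 (adjusted p = 4.04e-05), and 20 of the genes tested had a lower one. Hlf read 39.3, 41.3 and 36.5 CPM in V and 12.4, 15.6 and 9.48 CPM in DOX, for a log2 fold change of -1.64 ± 0.16 (adjusted p = 9.31e-05). Tef, which had not passed at 16 h, read 203, 203 and 196 CPM in V and 103, 122 and 87.3 CPM in DOX, for a log2 fold change of -0.94 ± 0.12 (adjusted p = 0.000222). In all 3 the unnumbered library was the lowest of the DOX libraries.

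Of the bHLH repressors, Bhlhe41 fell at 72 h and Bhlhe40 did not pass. Bhlhe41 read 27.8, 18.6 and 19.7 CPM in V and 6.52, 8.69 and 11.1 CPM in DOX, which gave a log2 fold change of -1.33 ± 0.22 (adjusted p = 0.00173). Bhlhe40 read 30.5, 26.6 and 28.6 CPM in V and 25.2, 23.4 and 29.9 CPM in DOX, which overlap, at a difference of -0.13 ± 0.11 (adjusted p = 0.348). Whether the changes of these 2 genes differ from each other was not tested. Noct read 33.4, 28.7 and 31.9 CPM in V and 21.1, 16.1 and 18.4 CPM in DOX, without overlap, and fell by 0.76 on the log2 scale (SE 0.11, adjusted p = 0.000559).

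Core loop genes at 72 h were mixed. Of 10 tested, 2 rose and 2 fell, with a median of -0.05, where 26.5% of all genes rose and 27.2% fell. Clock (0.56 ± 0.076) and Per1 (0.51 ± 0.18) rose, and Per3 (-1.0 ± 0.17) and Nr1d2 (-0.92 ± 0.11) fell. Nr1d1 read 27.6 to 49.7 CPM in V and 28.7 to 32.7 CPM in DOX, and its difference of -0.20 ± 0.22 (adjusted p = 0.465) did not pass, nor did that of Per2 at -0.13 ± 0.13 (adjusted p = 0.396). Of 14 other clock-controlled genes 6 fell and 4 rose, to be read beside the same shares over all genes. Among those called were Dgat2 (-1.05 ± 0.096) and Usp2, a ubiquitin protease gene (-1.07 ± 0.15). The phosphoinositide 3-kinase subunit gene Pik3r1 (-1.06 ± 0.11) and Pdk4, a kinase that restrains pyruvate oxidation (3.34 ± 0.34), were called too.

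Of 9 glucocorticoid response genes 7 rose at 72 h and none fell, among them Fkbp5, a co-chaperone of the receptor (1.44 ± 0.25), and the metallothionein genes Mt1 (2.39 ± 0.32) and Mt2 (4.26 ± 0.57). Of 8 hypoxia response genes 5 fell and 2 rose, among them Egln3 (-1.49 ± 0.19) and the mitophagy receptor gene Bnip3 (1.59 ± 0.13). Over all genes at 72 h, 27.2% fell and 26.5% rose. In the test of the change at 72 h minus that at 16 h, none of the 9 glucocorticoid response genes passed, and of the 8 hypoxia response genes 1 was higher and 2 were lower. Summed cardiomyocyte markers read 31773 to 38077 CPM in V and 10902 to 14192 CPM in DOX, where 5 of 6 fell. The 3 neutrophil markers in the table rose, from sums of 0.957 to 1.98 to sums of 26.4 to 133 CPM, and the 3 red cell markers (Alas2, Hba-a1, Hbb-bs) fell from sums of 875 to 2126 to sums of 12.5 to 24.3 CPM. The part of these cell types in the results was not tested.

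A separate test took the doxorubicin change at 72 h minus that at 16 h, in the 6 genes present in both tables. It was past the threshold for Hlf (-0.97 ± 0.24, adjusted p = 0.00885) and Tef (-0.74 ± 0.15, adjusted p = 0.00238), both lower at 72 h, where 13.8% of 7407 genes tested were lower and 12.6% higher. Dbp had the opposite sign, 1.05 ± 0.74, and did not pass (adjusted p = 0.310), though it did when only V and DOX libraries were fitted (1.04 ± 0.33, adjusted p = 0.0307). For Bhlhe41 (-0.55 ± 0.37, adjusted p = 0.292), Bhlhe40 (0.31 ± 0.19, adjusted p = 0.244) and Noct (-0.01 ± 0.27, adjusted p = 0.992) no difference between the times was detected. Among core loop genes Nr1d1 (1.39 ± 0.47) and Per2 (1.09 ± 0.21) were higher at 72 h by the same test, and Nr1d2 (-0.05 ± 0.23) did not pass. Of the 6 cardiomyocyte markers 3 were lower at 72 h by this test and 1 was higher, with a list median of -0.83. Their part in the Hlf and Tef differences was not tested. Each time is set against its own vehicle group, and the labels do not say whether hearts of both times were taken at the same hour of the day.

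**Figure D4:**
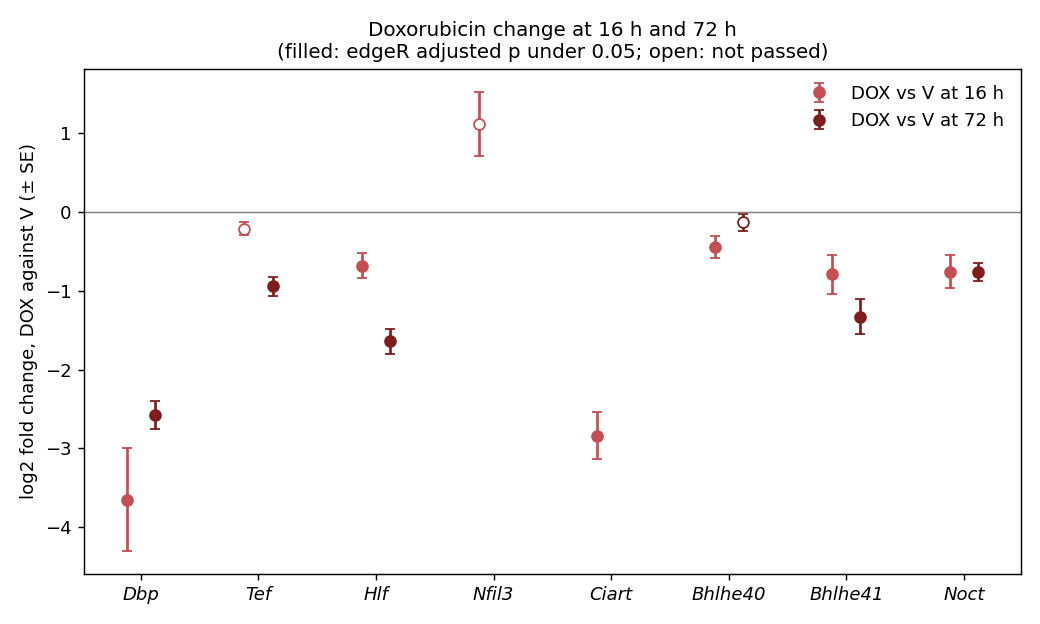
Log2 fold change of DOX against V (vertical axis, ± SE) of the 8 genes at 16 h and of 6 of them at 72 h, filled where edgeR's adjusted p was under 0.05. Hlf and Tef lie lower at 72 h than at 16 h, while Dbp stands at -3.65 and -2.58 and Nfil3 at 1.12.

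Hesperitin alone against vehicle at 16 h changed none of the 8 genes by edgeR's test, and none of all genes tested (0%), with 664 genes at an unadjusted p under 0.05. DESeq2 called 12 genes, 1 of them among the 8. That gene is Noct, which read 49.1, 30.4 and 29.6 CPM in H against 81.7, 77.8 and 53.5 CPM in V, with every H library below every V library, as in 7.53% of all genes. Its difference was -0.97 ± 0.21 (edgeR adjusted p = 0.556), and DESeq2 gave adjusted p = 0.0104. Without H replicate 1, the H library nearest to V for this gene, it was -1.24 (edgeR adjusted p = 0.0165). Summed neutrophil markers read 141 CPM in that library, against 7.87 and 8.62 CPM in the other H libraries and 20.2 to 63.9 CPM in V, and their part in the Noct values was not tested. Ciart also lay below V without overlap, at 10.9 to 11.7 CPM in H and 13.0 to 13.2 CPM in V, with a difference of -0.20 ± 0.24 (adjusted p = 0.948). Dbp read 67.3, 111 and 108 CPM in H, which encloses the V range, and differed by 0.27 ± 0.55 (adjusted p = 0.982). Bhlhe41 read 22.0, 36.5 and 33.1 CPM in H and differed by 0.36 ± 0.24 (adjusted p = 0.860). For both, H replicate 1 was the lowest library of its group. Nfil3 read 3.80 to 6.07 CPM in H and differed by -0.56 ± 0.43 (adjusted p = 0.883), and Tef, Hlf and Bhlhe40 differed by 0.06, -0.08 and 0.03. H libraries were deeper than V libraries, and with their counts thinned to the mean depth of V, an alternative added after the data were seen, again none of the 8 was called.

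Both compounds together were set against vehicle and against doxorubicin alone. By edgeR's test none of the 8 genes and none of all genes (0%) passed in either comparison, with 1749 and 1958 genes at an unadjusted p under 0.05, while DESeq2 called 131 and 379 genes. These comparisons share the V and DOX libraries with those above. The 3 DOXH libraries differed too much among themselves for a group mean to describe them, so each is given on its own.

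Dbp read 24.8, 4.18 and 50.7 CPM in DOXH replicates 1 to 3. Replicate 2 lay within the DOX range of 3.92 to 9.12 CPM, and replicates 1 and 3 lay between DOX and V. Ciart followed the same order, at 2.97, 1.82 and 5.60 CPM (31, 17 and 54 counts). Nfil3 ran the other way, at 10.0, 16.1 and 4.15 CPM, so that its replicate 3 was at the low end of the V range of 4.19 to 9.70 CPM. The log2 ratio of Dbp to Nfil3 was accordingly 1.30, -1.95 and 3.61 in these libraries, against 3.14 to 4.16 in V and -2.19 to -0.33 in DOX.

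Bhlhe41, Bhlhe40, Hlf and Tef lay nearer to the DOX mean than to the V mean in every DOXH library. Bhlhe41 read 15, 8.89 and 16.1 CPM and Bhlhe40 38.4, 30.7 and 39.3 CPM, with all 3 libraries of each below V, and Hlf, at 27.3, 21.3 and 27.2 CPM, was also below V in every library. Tef read 145, 148 and 128 CPM, and its lowest library was replicate 3, the one nearest to V for Dbp. In all, 6 of the 8 genes had every DOXH library below every V library, as in 9.84% of all genes. Noct read 55.2, 69.8 and 63.4 CPM, within the V range of 53.5 to 81.7 CPM and above every DOX library, as in 10.1% of all genes.

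**Figure D5:**
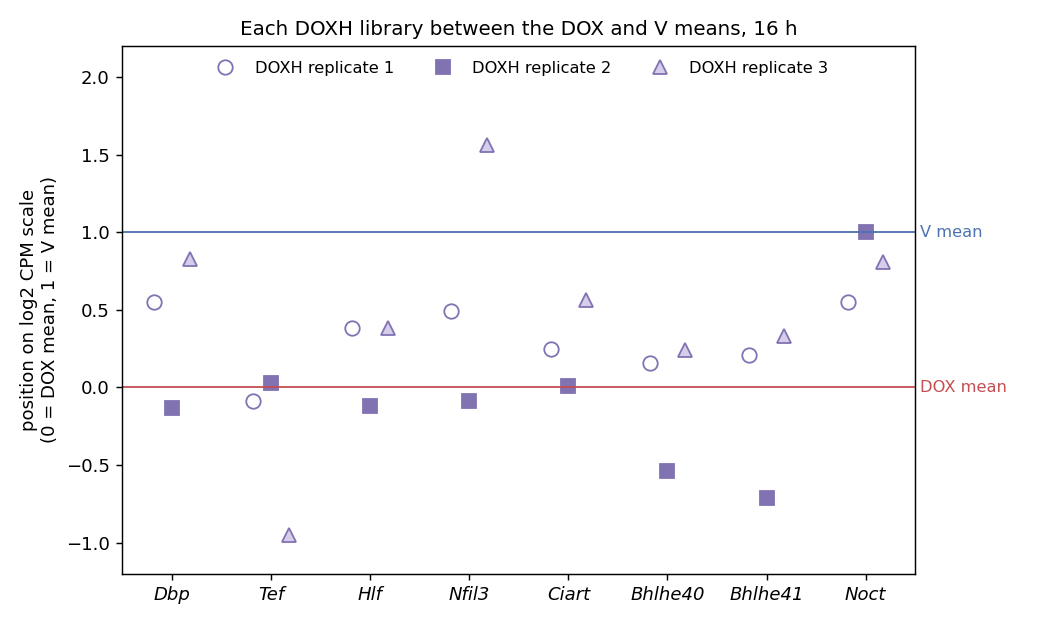
Position of each DOXH library at 16 h on the log2 CPM scale between the DOX mean (0) and the V mean (1), for the 8 genes, with a symbol for each replicate. Replicate 2 lies at -0.13 for Dbp and 0.01 for Ciart but at 1.00 for Noct, and replicate 3 at 0.83, 0.56 and 0.81.

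On a scale with the DOX mean at 0 and the V mean at 1 (log2 CPM), the 6 genes that fell with DOX had medians of 0.32, -0.12 and 0.47 in DOXH replicates 1 to 3. The 6 core loop genes called in DOX against V had medians of 0.52, -0.02 and 0.69, and Nr1d1 stood at 0.58, -0.04 and 0.99. Summed cardiomyocyte markers ran in the same order, lowest in replicate 2 and highest in replicate 3: they read 27020, 26049 and 42859 CPM in replicates 1 to 3, against 20966 to 22674 CPM in DOX and 39016 to 45332 CPM in V. Summed neutrophil markers read 132, 129 and 52.4 CPM. Their part in these positions was not tested.

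Against DOX, Dbp differed by 2.07 ± 0.65 (adjusted p = 0.164), Ciart by 0.92 ± 0.33 (adjusted p = 0.188) and Noct by 0.58 ± 0.21 (adjusted p = 0.191). Without DOXH replicate 2, Dbp (2.57, adjusted p = 0.00636) and Ciart (1.22, adjusted p = 0.0167) passed, and 1554 of all genes did. Against V, Ciart differed by -1.92 ± 0.28 (adjusted p = 0.101), Dbp by -1.57 ± 0.58 (adjusted p = 0.250), Bhlhe41 by -0.83 ± 0.26 (adjusted p = 0.210) and Noct by -0.18 ± 0.21 (adjusted p = 0.687). Without DOXH replicate 3, 5 of the 8 passed (Dbp, Hlf, Ciart, Bhlhe40 and Bhlhe41), and 1674 of all genes did. With all libraries kept, DESeq2 called Ciart against V (-1.92, adjusted p = 1.2e-07). The calls with DOXH thus depend on which of its libraries is kept and on the tool.

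Whether hesperitin altered the doxorubicin change was tested as the interaction, DOXH minus H less DOX minus V. None of the 8 and none of all genes (0%) passed edgeR's test, with 1228 genes at an unadjusted p under 0.05 and 42 called by DESeq2, none of them among the 8. The largest estimates were those of Dbp (1.80 ± 0.85, adjusted p = 0.441), Noct (1.55 ± 0.30, adjusted p = 0.233) and Ciart (1.12 ± 0.41, adjusted p = 0.377). All 3 passed without DOXH replicate 2, at adjusted p of 0.0457, 0.0486 and 0.0465, and Noct also without H replicate 1 (1.83, adjusted p = 0.0120). Over all 10393 genes, 0 to 254 were called in the 12 fits that left out 1 library. These passes thus depend on which library is kept. Noct is the gene for which both single treatments lay below V and their combination did not.

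The genes whose profiles over the 12 libraries at 16 h lay nearest to each of the 8 were found by the root mean square difference of centred log2 CPM, as a description of these libraries. For Dbp they were Lrrc15, a leucine-rich repeat protein gene (0.498), Aplnr, the apelin receptor gene (0.505), and the tubulin gene Tuba4a (0.556), beside a spread of Dbp itself of 1.81. Ciart lay nearest to Fbxl22, an F-box protein gene of the sarcomere (0.378), and Apln, the apelin gene (0.393), at a spread of 1.23. Nfil3 lay nearest to Osmr, the oncostatin M receptor gene (0.253), and Apod, the apolipoprotein D gene (0.265), at a spread of 0.788. Bhlhe41 lay nearest to the ephrin gene Efna1 (0.150) and the repressor gene Hic1 (0.182), at a spread of 0.597. Hlf lay nearest to the tetraspanin gene Tspan15 (0.113), Noct to mt-Nd3, a complex I gene of the mitochondrial genome (0.206), Bhlhe40 to the sugar transporter family gene Slc35a4 (0.125) and Tef to the methyltransferase gene Lcmt1 (0.0674), at spreads of 0.344, 0.470, 0.286 and 0.164. No member of the 8 and no core loop gene was among the 3 nearest of any of them. The measure counts the size of a change as well as its shape. Genes that move in parallel but by unlike amounts are therefore not near by it, and their absence does not show that they move apart. Gene models without a name were left out of the search.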

How the data were processed

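Heart RNA was selected for poly(A) and sequenced as single-end reads, per the labels' protocols and the design text. The authors deposited expected counts, estimated reads per gene, in 1 table per time. Per the submitters' processing notes RSEM was used with GRCm38 (mm10), and DESeq2 is listed too. The sources used here give no version, annotation, strand setting or filter applied before deposit. At 72 h, 6 columns with a code that no label uses were not analysed here.

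Expected counts were rounded, scaled by TMM and passed through filterByExpr: every gene was kept at 16 h, and 7703 at 72 h. Group means were fitted in edgeR 4.0.16 (R 4.3.3) by a robust quasi-likelihood fit, with 8 residual degrees of freedom over the 12 libraries of 16 h, 4 over the 6 of 72 h and 12 when both times, 18 libraries, were fitted together. P-values were adjusted by Benjamini-Hochberg over all genes tested. The SE is the absolute log2 change over the square root of F. Log2 CPM used a prior count of 2. No 2 libraries agreed within sampling noise. P-values measure only the spread between these samples, which may be technical. Simulated counts with known changes were used to check the fits.

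Other settings tried were DESeq2 1.42.0, voom of limma 3.58.1, scaling by RLE or by upper quartile, dropping the filter, keeping genes with a mean of 5 CPM or more, a replicate block, only the groups compared, and each library left out. Having seen the data, a fit without DOXH and one with thinned H libraries were added. The 8 genes, the lists and the tests were chosen with earlier results of these data known. Named genes are the 8, core loop genes past the threshold, up to 4 of each other list by smallest p, and the 3 nearest profiles, of which the text names fewer. Some core loop genes are not reported here and are left out of the counts for that list.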

Additional observations from a re-analysis of the deposited data

Results flagged for a closer look

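The doxorubicin change of 2 of the 6 genes present in both tables differed between the times by a test of the difference itself, both lower at 72 h, where 13.8% of all 7407 genes tested were lower and 12.6% higher. The difference for Hlf, 72 h minus 16 h on the log2 scale, was -0.97 ± 0.24 (edgeR adjusted p = 0.00885), from -0.68 at 16 h to -1.64 at 72 h. Tef differed by -0.74 ± 0.15 (edgeR adjusted p = 0.00238), from -0.21 to -0.94. Both differences were past the threshold in all 12 fits that left out 1 library. Among 10 core clock loop genes the change of 2 differed between the times by the same test, at 1.39 ± 0.47 for Nr1d1 (edgeR adjusted p = 0.0394) and 1.09 ± 0.21 for Per2 (edgeR adjusted p = 0.00208). Of the 6 cardiomyocyte markers 3 were lower at 72 h and 1 was higher, with a list median of -0.83.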

How the results depend on the processing

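Of 424 results for single genes under the alternatives other than leaving out 1 library, 416 kept their direction and side of the threshold. Another 8 newly passed it and none changed sign. These alternatives include fits of fewer groups, which gave some of the new passes. DESeq2 called 1 of the 8 genes in H against V (Noct) and 1 in DOXH against V (Ciart), where edgeR called 0. With 1 library left out, the number of the 8 genes called ranged from 3 to 5 in DOX against V at 16 h, 0 to 1 in H against V, 0 to 2 in DOXH against DOX, 0 to 5 in DOXH against V and 0 to 3 in the interaction. Signs turned in these fits for 7 differences that lay between -0.08 and 0.03 with all libraries: Bhlhe40 ranged from -0.17 to 0.0767 and Bhlhe41 from -0.21 to 0.18 in DOXH against DOX, Nfil3 from -0.53 to 0.34 and Bhlhe40 from -0.19 to 0.0488 in the interaction, Hlf from -0.16 to 0.0629 and Bhlhe40 from -0.0518 to 0.10 in H against V, and Noct from -0.12 to 0.16 in the difference between times. The count over all genes went from 3352 to between 1928 and 2409 in DOX against V at 16 h, and up to 47 in H against V and 254 in the interaction. With a replicate block it was 1214 instead of 1960 for the difference between times (1163 shared). Libraries were also correlated after each gene's group mean was subtracted, which ties the values of the different pairings to each other. Same-numbered DOX and V libraries then correlated at -0.178 to -0.106 at 16 h. At 72 h, where only 2 pairs carry numbers, they correlated at 0.197 and 0.245, and differently numbered ones (1 with 2) at -0.227 and -0.243. The labels name no shared animal, litter or day, so whether the numbers pair the samples at 72 h is not known. With the replicate block 7 of the 8 genes were called in DOX against V at 16 h, with Nfil3 at 1.17 (adjusted p = 0.0138). Over all genes 3064 were called there with the block, against 3352 without it. The number of the 8 genes called in the other comparisons did not change. Only the groups compared gave 1 gene over all genes in each DOXH comparison, and 3 libraries per group limit calls of small changes.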
